A study of Mus musculus with 4 samples.

Results

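The replication-dependent histone genes supply the linker histone H1 and the core histones H2A, H2B, H3 and H4 that package newly copied DNA. They were taken as genes whose older mouse symbol starts with Hist1h, Hist2h, Hist3h or Hist4h and which have a probe set that the platform annotation gives to that gene alone. The annotation used here carries the current symbols, and no symbol in it starts with Hist, so the older symbols were read from the RefSeq gene table through the gene identifier. This gave 31 genes, each on 1 probe set, of 19935 genes compared. They are 5 of 6 H1 genes in that gene table, 5 of 20 H2A, 11 of 19 H2B, 3 of 12 H3 and 7 of 13 H4, or 31 of 70 in all. Histone genes have near-identical copies: 27 further probe sets name a histone gene together with other genes, and the value of a member may also hold signal from its copies.

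As background, these genes lie in clusters and are transcribed mainly in S phase, when DNA is copied. NPAT, phosphorylated by cyclin E with CDK2, drives their transcription. Most of their messages end in a stem-loop in place of a poly(A) tail, and the stem-loop binding protein SLBP is needed for their 3' end processing, translation and decay. When DNA synthesis stops, the messages are degraded quickly. The linker histone H1 sits on the DNA between nucleosomes and compacts chromatin, whereas the 4 core types form the nucleosome itself.

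Transcripts were measured in Ba/F3, an established mouse pro-B cell line that depends on the growth factor interleukin-3 (IL-3), on 4 Affymetrix Mouse Gene 1.0 ST arrays. Parental cells kept in IL-3 were measured on 1 array. Cells with a doxycycline-inducible BCR-ABL, the leukaemia fusion kinase that can stand in for IL-3, were kept in doxycycline at 500 ng/ml. They were measured on arrays A and B (n = 2) in the absence of IL-3 and on 1 array in its presence. The transgene itself was not analysed here. All cells grew in RPMI to logarithmic phase, and the parental cells are not stated to have had doxycycline, so the drug, the kinase and the derivation of the line cannot be told apart. Whether A and B are separate cultures is not stated, and p-values therefore cover only the spread of these samples, which may be a technical one. The labelling kit used primes RNA along its length and not at a poly(A) tail, so messages without a tail could be measured.

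Values were deposited as differences from the parental array, which is 0 throughout, and were read as log2. Absolute levels were not analysed here, so neither the labelled cell type nor the brightness of a member could be checked against a level. Over all genes the median was 0.00 on A, -0.08 on B and 0.01 on the array with IL-3, and the SD over genes of the difference between arrays was 0.196 for A and B, 0.152 for A and the array with IL-3, and 0.222 for B and the array with IL-3. The array with IL-3 was thus nearer to A than B was, and B is in every value without IL-3. At least 4 of the members (H1f6, H2ac8, H2bc22 and H3c7) were dim, with a stored signal in the low range of the scale on at least 1 array. The mark can miss a low signal, so other members may be dim too. Of 8 mast cell markers, Cpa3 and Hdc rose with BCR-ABL without IL-3 (log2 3.04 and 0.74) and the dim Cma1 fell by 0.90. Kit, Fcer1a, Ms4a2, Mcpt1 and Mcpt4, all dim, were not called. Of 4 erythroid markers, Klf1 and Epor fell by 0.92 and 0.70, and Gata1 and the dim Alas2 were not called. Over all genes 5.19% were called higher and 2.87% lower. None of 8 B-lineage and 6 neutrophil and monocyte markers was called, nor were 5 testis genes. All 6 neutrophil and monocyte markers were dim, as were Ebf1, Il7r and Rag1 of the B-lineage and the testis gene Sycp3. For a dim gene the lack of a call says little. The part of these marker shifts in the histone values was not tested.

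The bases upstream of the H1 genes are shown because both members called for BCR-ABL without IL-3 against parental cells were H1 genes, and because 4 of the 5 hold a promoter element named for H1. RefSeq promoter windows (build GRCm38.p6) were at hand for 26 of the 31 members, and the 250 bases before each start were searched on both strands. Capitals in the 150 bases before each start mark the TATA-like letters TATAAA or TATATA, which can overlap each other, the CCAAT letters, and AAACACA, the element known as the H1 box. A match on the other strand stands reversed and complemented.
H1f1 (chr13:23763518-23763667, plus strand): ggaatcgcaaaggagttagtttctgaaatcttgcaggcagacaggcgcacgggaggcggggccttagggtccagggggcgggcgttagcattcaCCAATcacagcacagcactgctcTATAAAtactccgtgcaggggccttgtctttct
H1f2 (chr13:23738657-23738806, plus strand): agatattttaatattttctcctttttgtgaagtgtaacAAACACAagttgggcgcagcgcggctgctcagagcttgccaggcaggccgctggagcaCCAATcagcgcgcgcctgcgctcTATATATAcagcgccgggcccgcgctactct
H1f3 (chr13:23554882-23555031, plus strand): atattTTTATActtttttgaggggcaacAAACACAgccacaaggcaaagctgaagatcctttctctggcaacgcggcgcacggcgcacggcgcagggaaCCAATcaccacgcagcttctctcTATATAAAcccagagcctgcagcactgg
H1f5 (chr13:21780626-21780775, minus strand): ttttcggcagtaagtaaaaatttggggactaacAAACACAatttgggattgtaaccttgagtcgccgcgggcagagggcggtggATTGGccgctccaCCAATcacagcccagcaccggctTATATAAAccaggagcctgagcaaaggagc
H1f6 (chr13:23695661-23695810, plus strand): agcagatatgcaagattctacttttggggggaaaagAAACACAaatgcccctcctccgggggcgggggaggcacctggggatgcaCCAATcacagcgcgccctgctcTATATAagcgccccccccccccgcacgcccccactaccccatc

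All 5 H1 windows held CCAAT and TATA-like letters, and AAACACA stood 112 bases before the start in H1f2, 122 in H1f3, 117 in H1f5 and 114 in H1f6. In H1f1 these letters were not in the window. AAACACA was in 8 of the 26 member windows, against 6.25% of all 32851 windows of this length, and in none of the H3 and H4 windows. The octamer ATTTGCAT, which binds Oct-1 and is known from H2B promoters, was in 5 of 8 H2B and 4 of 5 H2A windows and in no H1, H3 or H4 window, against 1.6% of all windows. CCAAT was in 21 member windows, against 33.8% of all, and TATAAA or TATATA in 19, against 15.6%. These are matches of letters and not measured binding sites. H2ac8 and H2bc8 lie 179 bases apart and H2ac1 and H2bc1 280 bases, so the windows of such a pair may overlap. The same match can then count for both genes. All of these genes are among those with the octamer, and H2ac1 and H2bc1 are among those with AAACACA.

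The comparison of BCR-ABL cells without IL-3 with the parental line asks what differs when the kinase replaces the growth factor. H1f2 and H1f3, which encode the somatic linker histones H1.2 and H1.3, were about 2-fold lower in the BCR-ABL cells, and the other 29 members did not pass the test. By limma, with p-values adjusted over all genes, 2 of 31 members (6.45%) were called lower and 0 higher, while over all genes 2.87% were called lower and 5.19% higher. At an unadjusted p under 0.05, 6 of 31 members were lower and 0 higher. As a share this is near the 16.6% of all genes that passed in either direction. The share of all genes that were lower at this threshold was not counted. Both arrays lay below the parental array for 19 members (61.3%), a pattern shown by 42.0% of all genes. For the other 12 members A and B lay on opposite sides of the parental array, and for no member were both higher. The median over the members was -0.10, against -0.04 over all genes. In these bulk samples fewer cells in S phase and less histone RNA per cell cannot be told apart.

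**Figure D1:**
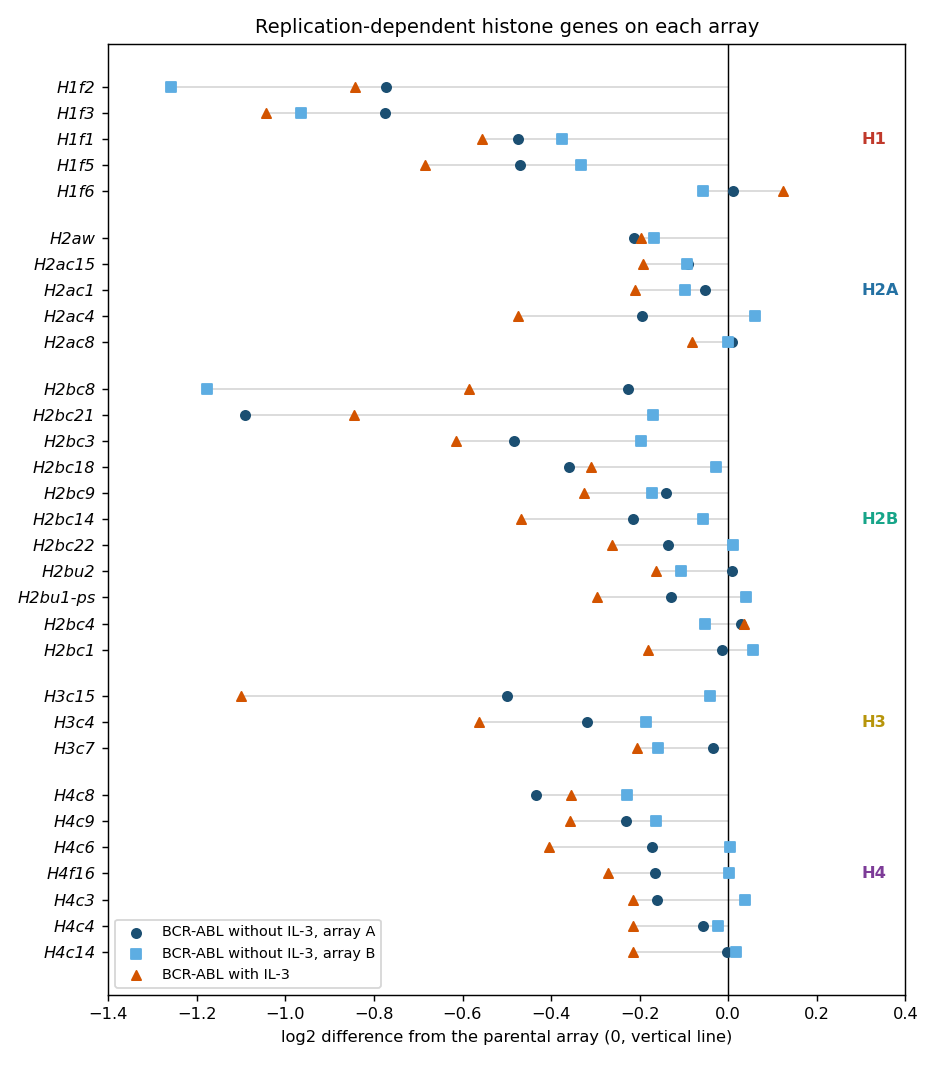
Log2 difference from the parental array for each of the 31 histone genes, by core type, on arrays A and B (BCR-ABL without IL-3) and on the array with IL-3; the vertical line at 0 is the parental array. H1f2 and H1f3 lie at or left of -0.77 on all 3 arrays, and H2bc8 and H2bc21 have the widest gaps between A and B.

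H1f2 (Hist1h1c, chr13:23738807-23739531) was at -0.77 on A, -1.26 on B and -0.84 on the array with IL-3. The mean of A and B was -1.015 ± 0.183 (SE), or 2.02-fold lower than in parental cells, with an adjusted p of 0.0014 by limma. H1f3 (Hist1h1d, chr13:23555032-23555807) was at -0.78, -0.96 and -1.04 on the same arrays. Its mean of A and B was -0.87 ± 0.158 (SE), or 1.83-fold lower, with an adjusted p of 0.00145. For both genes every BCR-ABL array was well below the parental array, whether or not IL-3 was present. All of these values are taken from the same single parental array, whose own spread was not measured.

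The other somatic H1 members were lower on every BCR-ABL array by a smaller margin. H1f1 (Hist1h1a) was at -0.47 on A, -0.37 on B and -0.56 with IL-3, and the limma adjusted p of the mean of A and B was 0.12. H1f5 (Hist1h1b) was at -0.47, -0.33 and -0.68, with an adjusted p of 0.153. H1f6 (Hist1h1t), the testis-specific linker histone, was at 0.01, -0.06 and 0.12, on both sides of the parental array. The H1 median was -0.42 over the 5 genes and -0.65 over the 4 without H1f6, while the 26 core histone genes had a median of -0.09. H1 thus held the 2 called genes among 5, and the core types held 0 among 26, a difference that was not itself tested. Over all genes 2.87% were called lower, so 0 of 26 is near that share. The core members H2bc8 and H2bc21, though not called, had larger mean differences than H1f1 and H1f5.

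Among H2A genes, none was called and the values were small. H2aw (Hist3h2a) was at -0.21 on A, -0.17 on B and -0.20 with IL-3, below the parental array on all 3. H2ac15 (Hist1h2ak) was at -0.09, -0.09 and -0.19, and H2ac1 (Hist1h2aa), a testis H2A, at -0.05, -0.10 and -0.21. H2ac4 (Hist1h2ab) was at -0.19, 0.06 and -0.47, with A and B on opposite sides of the parental array. H2ac8 (Hist1h2ae), a dim member, was at 0.01, 0.00 and -0.08. The H2A median was -0.07.

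H2B held the members on which A and B differed most. H2bc8 (Hist1h2bg) was at -0.23 on A but -1.18 on B, and -0.58 with IL-3. H2bc21 (Hist2h2be) ran the other way, at -1.09 on A, -0.17 on B and -0.85 with IL-3. The gaps between A and B were 0.951 for H2bc8 and 0.92 for H2bc21, and they were the only members with a gap over 0.5. A gap at least as wide as that of H2bc21 was found for 0.206% of all genes. Their means of A and B, -0.70 ± 0.25 and -0.63 ± 0.245 (SE), had adjusted p-values of 0.109 and 0.157 by limma. For H2bc8 the size of the difference from parental cells therefore rests on array B, and for H2bc21 on array A.

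H2bc21 lies on chromosome 3 with an annotated span of 2667 bases, wider than the span of most histone genes, which are short and without introns. Only 3 members had a span over 1000 bases, the others being H2bc4 (Hist1h2bc, 8282 bases) and H2bc22 (Hist1h2bp, 14079 bases). Some histone genes are known to give longer polyadenylated messages as well, and the arrays' values do not separate these from stem-loop messages. H2bc4 was at 0.03, -0.05 and 0.04 on A, B and the array with IL-3, close to the parental array on all 3. H2bc22 was at -0.14, 0.01 and -0.26.

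Of the other H2B genes, H2bc3 (Hist1h2bb) was at -0.48 on A, -0.20 on B and -0.61 with IL-3, with a limma adjusted p of 0.314 for the mean of A and B. H2bc18, H2bc9, H2bc14, H2bu2, the pseudogene H2bu1-ps and H2bc1, a testis H2B, had means of A and B between -0.19 and 0.02. The H2B median was -0.14 for the mean of A and B, -0.14 on A and -0.06 on B, so its size rests on array A. Below the parental array on both A and B were 6 of the 11 genes, against 42.0% of all genes.

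All 3 H3 genes were below the parental array on both A and B, against 42.0% of all genes, and none was called. H3c15 (Hist2h3c2) was at -0.50 on A and -0.04 on B, H3c4 (Hist1h3d) at -0.32 and -0.19, and the dim H3c7 (Hist1h3f) at -0.03 and -0.16. The H3 median was -0.25 for the mean of A and B, -0.32 on A and -0.16 on B alone. Among the 7 H4 genes, H4c8 (Hist1h4h) had the largest difference, at -0.43 on A and -0.23 on B, followed by H4c9 (Hist1h4i) at -0.23 and -0.16. H4c6, H4f16, H4c3, H4c4 and H4c14 had means of A and B between -0.08 and 0.01. The H4 median was -0.08 for the mean of A and B, -0.17 on array A and 0.00 on array B, so its direction rests on array A.

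Array B was above array A for 20 members (64.5%), although over all genes B was above A for 33.8%. The members' median was -0.17 on A and -0.09 on B, the opposite order to the medians over all genes, 0.00 on A and -0.08 on B. The members' shift relative to all genes without IL-3 therefore depended on the array. It was small on A, and on B the members' median was close to that of all genes.

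**Figure D2:**
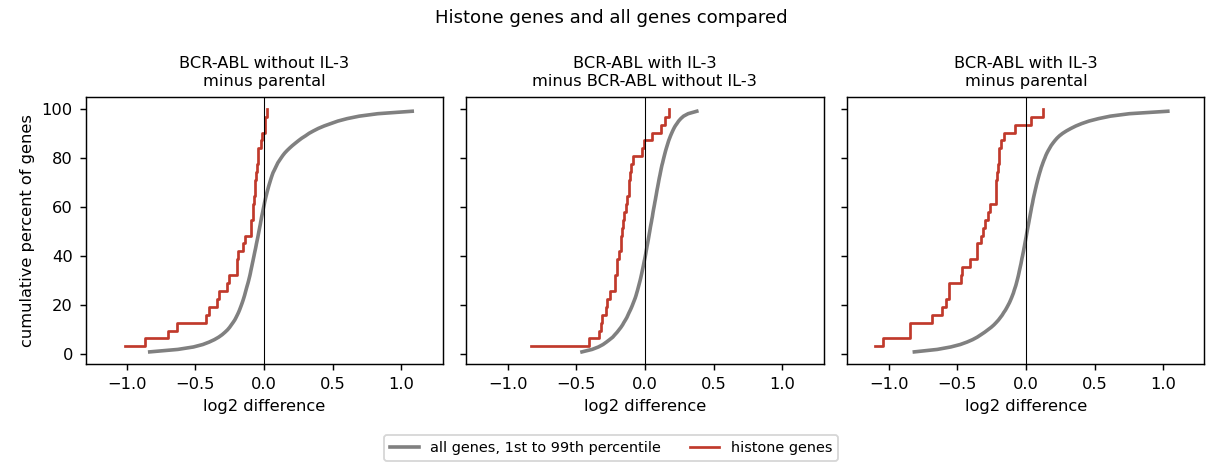
Cumulative percent of the 31 histone genes (red steps) and of all 19935 genes (grey, from the 1st to the 99th percentile) by log2 difference in each of the 3 comparisons. The histone curve lies left of the curve of all genes in each panel, with medians of -0.10, -0.17 and -0.31 against -0.04, 0.03 and 0.01.

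The comparison of BCR-ABL cells with and without IL-3 asks what IL-3 changes in cells that already express the kinase. It shares arrays A and B with the comparison above. Most histone genes were lower on the array with IL-3, and none passed the test. By limma 0 of 31 members were called, and over all genes 0.00502% were. This was 1 gene, the small nucleolar RNA gene Snord14e, named here after its value was seen. At an unadjusted p under 0.05, 3 of 31 members were lower and 0 higher, and 4.52% of all genes passed in either direction. The share of all genes lower at that threshold was not counted. The array with IL-3 lay below both A and B for 23 members (74.2%), and 25.5% of all genes showed this. It lay above both for 2 members, H1f6 and H2bc4. The median of the members was -0.17, against 0.03 over all genes.

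H3c15, an H3 gene of the cluster on chromosome 3 (chr3:96238479-96239127), showed the largest difference. It was at -0.50 on A, -0.04 on B and -1.10 on the array with IL-3, so the array with IL-3 was below both others by more than A and B differed. The difference from the mean of A and B was -0.83 ± 0.18 (SE), or 1.78-fold lower, with an adjusted p of 0.296 by limma. H2ac4 followed with -0.41 ± 0.161 (SE) and an adjusted p of 0.924, and H2bc14 (Hist1h2bm), at -0.22, -0.06 and -0.47 on A, B and the array with IL-3, with -0.33 ± 0.156 (SE) and an adjusted p of 1.00. These 3 were the members with an unadjusted p under 0.05.

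The medians were -0.13 for H1, with 3 of 5 genes lower, -0.10 for H2A, -0.20 for H2B, -0.31 for H3 and -0.17 for H4. All 3 H3 genes, 6 of 7 H4 genes, 4 of 5 H2A genes, 3 of 5 H1 genes and 7 of 11 H2B genes lay below both A and B with IL-3. Over all genes 25.5% did, and differences between the types were not tested. Among H4 genes, H4c6 was at -0.17 on A, 0.00 on B and -0.40 with IL-3, H4f16 at -0.17, 0.00 and -0.27, and H4c14 at 0.00, 0.02 and -0.21. H4c9 was at -0.36 with IL-3, also below both A and B. The exception in H4 was H4c8, at -0.35 with IL-3, which lies between A and B. H1f2, H2aw, H2bc8, H2bc18 and H2bc21 were likewise between A and B with IL-3, so for these genes the direction of the difference turns on which array is used. H1f3 was below both arrays with IL-3, by -0.17 from their mean, while H1f2 was 0.17 above the mean of A and B; both differences were smaller than the gap between A and B for that gene.

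**Figure D3:**
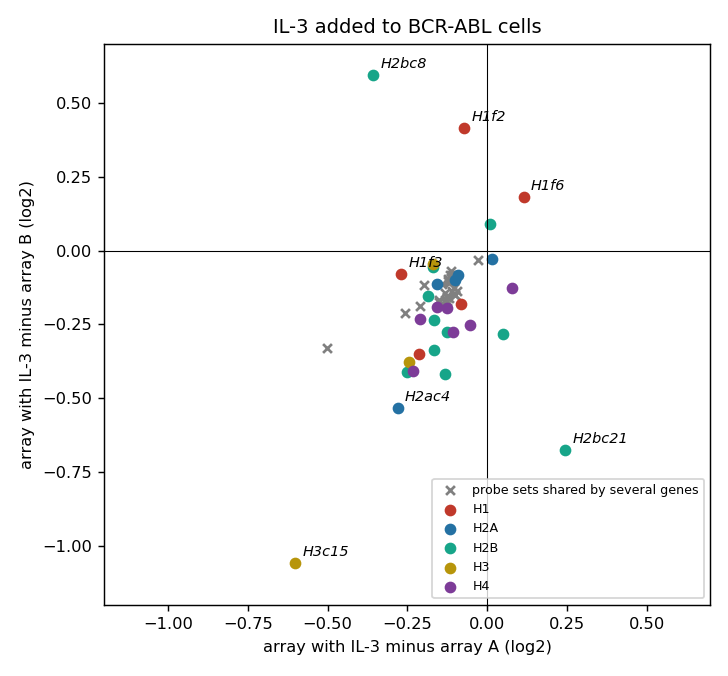
Log2 difference of the array with IL-3 from array A (horizontal) and from array B (vertical) for the 31 histone genes, coloured by core type, and for 27 probe sets that several genes share (crosses). Points in the lower left quadrant are lower with IL-3 than on both arrays. There lie 23 members and all 27 shared probe sets, against 25.5% of all genes, with H3c15 farthest out. H2bc8 and H2bc21 lie in opposite quadrants.

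Histone genes without a probe set of their own could be followed only as families, through 27 probe sets that the annotation gives to several genes. Of these 23 hold genes of 1 core type, namely 7 for H2B, 10 for H3 and 6 for H4, and 4 are mixed. They share probes and source genes, so they are not independent measurements. The array with IL-3 was below both A and B and below the parental array for all 27. Over all genes 25.5% were below both A and B, and 47.4% below the parental array. The median on the array with IL-3 was -0.25 for H2B, -0.14 for H3 and -0.18 for H4, and without IL-3 the same families lay nearer to the parental array, at -0.10 on A and -0.08 on B for H2B, -0.03 and -0.05 for H3, and -0.06 and -0.01 for H4. The median of all 27 on the array with IL-3 was -0.17, against -0.31 for the members. For IL-3 against no IL-3 it was -0.13, against -0.17 for the members. The values of the shared probe sets carry no test.

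The comparison of BCR-ABL cells with IL-3 with parental cells, both grown with IL-3, has 1 array on each side, so its values are given first without a test. It shares the parental array with the comparison of A and B with parental cells. On the array with IL-3, 29 of 31 members (93.5%) were lower than on the parental array, against 47.4% of all genes, and the median of the members was -0.31, against 0.01. At least 1.5-fold lower were 6 members (19.4%) and at least 1.5-fold higher 0, while over all genes 2.53% were that much lower and 3.3% that much higher. The 6 were H3c15 (2.14-fold lower), H1f3 (2.06-fold), H2bc21 (1.80-fold), H1f2 (1.79-fold), H1f5 (1.61-fold) and H2bc3 (1.53-fold). H2bc8 lay just short of the threshold. The members higher than on the parental array were H1f6 at 0.12 and H2bc4 at 0.04. A limma test that gives both lone arrays the spread of A and B was added after the data were seen. It called 4 members (12.9%) lower and 0 higher, against 1.79% and 2.51% of all genes. The 4 were H1f3 (adjusted p 0.00165), H3c15 (0.0033), H1f2 (0.0267) and H1f5 (0.0354).

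By core type the medians on the array with IL-3 were -0.68 for H1, -0.56 for H3, -0.31 for H2B, -0.27 for H4 and -0.20 for H2A. The H3 value rests on 3 genes, from -0.21 for the dim H3c7 to -1.10 for H3c15. The shared H3 probe sets had a median of -0.14 on that array, nearer to the parental array than those of H2B (-0.25) and H4 (-0.18). The place of H3 in this order thus depends on the probe sets used. All 5 H2A, all 3 H3 and all 7 H4 genes were below the parental array, against 47.4% of all genes, with H4 values between -0.40 and -0.21. Side by side, the mean of A and B against parental cells gave -0.42 for H1, -0.25 for H3, -0.14 for H2B, -0.08 for H4 and -0.07 for H2A. These 2 sets of values share the parental array, and in the limma test of IL-3 against no IL-3 no member of any type was called.

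Neighbouring members did not always have like values. H2ac8 and H2bc8 are separated by 179 bases on chromosome 13, yet the dim H2ac8 went no lower than -0.08 on any array. H2bc8 reached -1.18 on B, though it was at only -0.23 on A. H2bc1 and H2ac1, the testis pair separated by 280 bases, were both near the parental array on A and B and at -0.18 and -0.21 with IL-3. H2bu1-ps and H2aw, 172 bases apart on chromosome 11, were at -0.30 and -0.20 with IL-3. H2bc9 (Hist1h2bh) and the dim H3c7, 607 bases apart, were at -0.33 and -0.21 with IL-3. By chromosome, the median of the mean of A and B was -0.23 for the 4 members on chromosome 3 (-0.43 on A and -0.03 on B, so that it rests on array A), -0.05 for the 3 on chromosome 11 and -0.10 for the 23 on chromosome 13, and H4f16, the member on chromosome 6, was at -0.08. On the array with IL-3 the medians were -0.58, -0.20 and -0.35, with -0.27 for H4f16.

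Genes that act on the histone genes were read from lists chosen by name. Without IL-3 against parental cells, 5.19% of all genes were called higher and 2.87% lower. Of the transcription list, 7 of 8 genes were measured, and with BCR-ABL without IL-3 against parental cells 2 rose and 0 fell. Ccne1 (cyclin E1) was at 1.17 on A, 1.11 on B and 0.73 with IL-3, with a limma adjusted p of 8.51e-05, and Ccne2 (cyclin E2) at 0.67, 0.87 and 0.28, with an adjusted p of 0.00401. Npat, which encodes the coactivator NPAT, was at 0.08, 0.29 and 0.05, Casp8ap2 (FLASH, its partner at the histone genes) at 0.02, 0.12 and -0.21, and Hinfp, a factor for H4 promoters, at 0.00, 0.05 and 0.06. None of these 3 was called.

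Of the 20 genes for 3' end processing and decay of histone messages all were measured and 0 were called in either direction. Over all genes 5.19% were called higher and 2.87% lower without IL-3 against parental cells, so 0 of 20 is near that share. Slbp was at 0.09 on A, 0.14 on B and -0.19 with IL-3. The largest differences without IL-3 were Eri1, the exonuclease that trims the stem-loop end, at 0.49 (limma adjusted p 0.0599), and the uridylyl transferases Tut7 at -0.47 and Tut4 at -0.43 (adjusted p 0.076 and 0.123). The list's median was 0.08 without IL-3 against parental cells, -0.10 for IL-3 against no IL-3 and -0.02 for IL-3 against parental cells.

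Among histone variants made outside S phase, 9 of 11 were measured and 1 fell. Over all genes 2.87% were called lower without IL-3 against parental cells. H2az2, for the H2A variant H2A.Z.2, was at -1.16 on A, -1.13 on B and -1.07 with IL-3, so that its mean of A and B was -1.14 ± 0.153 (SE), with an adjusted p of 7.91e-05 by limma. Its paralogue H2az1 was at -0.16, 0.04 and -0.25, and was not called. H2ax, which gives both a stem-loop and a polyadenylated message, was at -0.38, 0.05 and -0.55, and Cenpa, for the centromeric H3, at -0.35, -0.18 and -0.50. The dim H3f3a, for H3.3, was at -0.27, -0.18 and -0.22, and Macroh2a1 at 0.27, 0.38 and 0.12. Macroh2a2, also among the measured variants, was dim as well. The median of the variants was -0.16 without IL-3 against parental cells. It was 0.00 for IL-3 against no IL-3 and turned to -0.04 once each array was centred on its median.

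Of the histone chaperones and assembly factors, 15 of 17 were measured, and without IL-3 against parental cells 2 rose and 0 fell. Over all genes 5.19% were called higher and 2.87% lower. Nasp, which binds H1 and H3 with H4, was at 0.83 on A, 1.04 on B and 0.39 with IL-3 (limma adjusted p 0.000859), and Chaf1b, a subunit of the CAF-1 complex that deposits histones at replication forks, at 0.71, 0.67 and 0.35 (adjusted p 0.00692). Hat1, which acetylates new H4, was at 0.31, 0.63 and 0.07 and was not called. The list's median was 0.19 without IL-3 against parental cells, -0.34 for IL-3 against no IL-3 and -0.05 for IL-3 against parental cells.

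DNA replication genes, which are also highest around S phase, stood on the other side of the parental array from the histone genes without IL-3. Of 21 genes 20 were measured, 6 rose and 0 fell, while over all genes 5.19% were called higher and 2.87% lower. Rrm2, the ribonucleotide reductase subunit, was at 1.36 on A, 1.55 on B and 1.03 with IL-3 (limma adjusted p 8.27e-06). Prim1 (primase) had a mean of A and B of 0.71, Cdc6 (origin licensing) of 0.69, Gins1 and Gins2 (replicative helicase) of 0.64 and 0.53, and Tk1 (thymidine kinase) of 0.52, with adjusted p-values from 0.00718 to 0.0428. With each array centred on its median, 2 genes of this list were called, and over all genes 637 were called higher and 299 lower. Pcna, the replication clamp, was at 0.34, 0.37 and -0.01 and was not called.

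The median of the 20 replication genes was 0.41 without IL-3 against parental cells, where that of the histone genes was -0.10. For IL-3 against no IL-3 it was -0.41, where the histone genes had -0.17. All 20 lay below both A and B on the array with IL-3, against 23 of 31 histone genes and 25.5% of all genes. For IL-3 against parental cells the median of the replication genes was 0.00, where the histone genes had -0.31. The replication genes were thus above the parental array without IL-3 and around it with IL-3, and the histone genes were slightly below it without IL-3 and further below it with IL-3. These 3 comparisons share arrays, 0 of the replication genes were called for IL-3 against no IL-3, and Slbp stands on this list and on the processing list.

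**Figure D4:**
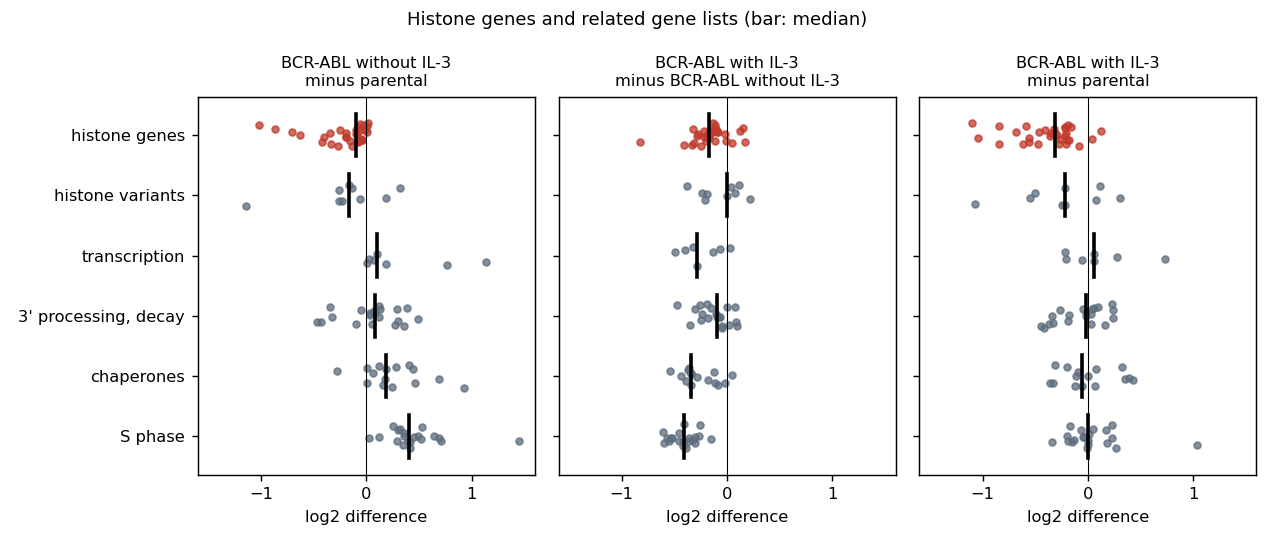
Log2 difference of each gene (points) and median (bar) of the histone genes and the 5 related lists in the 3 comparisons. The replication genes have medians of 0.41, -0.41 and 0.00 from left to right, and the histone genes -0.10, -0.17 and -0.31.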

How the data were processed

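Total RNA of 4 cell samples was labelled as biotin-tagged sense-strand cDNA, with 1 array per sample, per the labels' protocols. The deposited values, as the authors processed them, are log2 differences from the parental array. Their background correction, normalization and logarithm base are not given in the sources used here. The base was taken as 2. Of 86431 values other than 0, 83799 could be placed. All of these are whole multiples of 2 to the power -21, within the rounding of their printed digits. This is the step between stored numbers from 4 to 8. It does not settle the base, so every fold value rests on this reading. An odd multiple shows a stored number below 8 on some array, called dim (11012 of 28815 probe sets). An even multiple does not exclude such a number, so this count is a minimum.

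Probe sets with 1 symbol (21780, of which 21689 matched the RefSeq gene table, GRCm38.p6) were averaged into 19935 genes. Probe sets with several symbols (1605) or none here (5430) stayed out of the tests.

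A single limma fit (version 3.58.1, R 4.3.3) took all 4 arrays with 3 group means and 1 residual degree of freedom, the difference between A and B, and assumes that a lone array varies like that pair. Its prior had 16.38 degrees of freedom and an SD of 0.128. Two-sided p-values were adjusted by Benjamini-Hochberg over all genes, and a gene was called under 0.05. The script was tested on simulated data. The number of arrays limits the precision.

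The members and lists were chosen with earlier results of these data known. Named are the called members, those with the highest and lowest means in each core type, the called and the 3 most different genes of each list and some chosen by name; further members were chosen from their values. The alternatives tried were centring, leaving out dim probe sets, testis and pseudogene members or an array, each probe set alone, other thresholds and a fit of 3 arrays. Adding shared probe sets, limma calls for IL-3 against parental cells and the H1 median without H1f6 were chosen after seeing the data.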

Additional observations from a re-analysis of the deposited data

How the results depend on the processing

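H1f2 and H1f3 were called without dim probe sets and with each array centred, with adjusted p-values of 0.0439 and 0.0232 by limma in the latter. Every member has 1 probe set, and the fit of 3 arrays has the same residuals, so testing probe sets alone or the compared arrays alone could not move a member's value. Centring took the genes called without IL-3 against parental cells from 1035 to 637 higher and from 572 to 299 lower, and the replication genes called from 6 to 2. The median of the members for that comparison moved from -0.10 to -0.06 with centring, to -0.16 without dim probe sets, and likewise to -0.16 without testis and pseudogene members. It ran from -0.0935 without array A to -0.172 without array B. For the H4 genes it ran from 0.00208 without array A to -0.167 without array B, a change of sign. At 2-fold in place of 1.5-fold, 2 members were lower with IL-3 than on the parental array. With the shared probe sets added, the median of that comparison was -0.21. With the spread of A and B borrowed, limma called 4 members lower in it, and 1.79% of all genes. Centring turned the median of the variants for IL-3 against no IL-3 from 0.00378 to -0.041. No paired analysis was possible, because no pairing of arrays is stated and the parental and with IL-3 groups have 1 array each. With 1 residual degree of freedom and absolute levels not analysed here, the signal over background of single members is unknown.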
